A study of Mus musculus with 8 samples.

Results

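The genes of the TNF superfamily ligands and their receptors were examined in chromatin accessibility data from mouse spleen. They were chosen by symbol: protein-coding genes of GENCODE vM21 named Tnfsf or Tnfrsf with a number, together with Tnf, Lta, Ltb, Ltbr, Cd27, Cd40, Cd40lg, Cd70, Fas and Fasl. This gave 41 of 21827 protein-coding genes, of which 17 encode ligands and 24 encode receptors. Spleens of C57BL/6J mice aged 8 weeks, fixed in formalin and embedded in paraffin (FFPE), were the source of all nuclei, and the labels name no treatment and no other allele. In every sample the nuclei were tagmented with the Tn5 transposase, which inserts adapters into open DNA, and the DNA was then purified with (+RV) or without (−RV) a reverse crosslinking step that frees DNA from fixed protein. How many mice were used is not stated in these sources. For bulk libraries the tagmented nuclei were split between the conditions, and the study describes the libraries of a condition as technical replicates. Bulk ATAC-seq had 2 libraries per condition, with 32288 and 32736 peaks (−RV) and 47755 and 47864 peaks (+RV), and single-cell ATAC-seq was deposited as 1 pooled set per condition. The −RV set held 1727885 fragments of 2406 barcodes and the +RV set held 14747920 fragments of 18620 barcodes, with 2 barcodes found in both. The read depth of the bulk libraries is unknown here.

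Ligands of this family are mostly trimeric proteins on the cell surface or shed from it, and each binds 1 or a few receptors on neighbouring cells. Some receptors carry a death domain and can start apoptosis, most others bind TRAF adaptors and activate NF-kB, and decoy receptors bind a ligand without passing on a full signal. In the spleen the family is known for B cell survival, for the help that T cells give to B cells, and for building the white pulp through lymphotoxin. The comparisons asked which of these genes had accessible promoters in fixed tissue, whether reverse crosslinking changed this, and in which cells the genes were accessible.

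Sequences are shown for promoters and nearby regions on which the results turn: 2 B cell receptor promoters open in all bulk libraries, 2 promoters called with reverse crosslinking alone, the promoter of Tnfsf10, which had no bulk peak but many single-cell fragments, and 3 regions away from promoters with high ratios between B cell-like or T cell-like barcodes and all others. The region of Tnfrsf13b lies in no annotated gene, the Tnfsf10 region lies in an intron of that gene, and the Tnfrsf18 region overlaps exons of the predicted genes Gm16008 and Gm37090. Promoters are RefSeq sequences of 300 bases (250 before and 50 after the start site, 5′ to 3′ on the gene's strand), and regions are 150 bases around a bulk summit, both on build GRCm38.p6 (mm10). Capitals mark matches, on either strand, to a GC box (GGGCGG), an ETS core (GGAAGT), the TATA box (TATAAA), or the kappaB motif, and in regions also a RUNX core (TGTGGT) or AP-1 (TGANTCA).
Tnfrsf13b promoter (chr11:61126505-61126804, plus strand): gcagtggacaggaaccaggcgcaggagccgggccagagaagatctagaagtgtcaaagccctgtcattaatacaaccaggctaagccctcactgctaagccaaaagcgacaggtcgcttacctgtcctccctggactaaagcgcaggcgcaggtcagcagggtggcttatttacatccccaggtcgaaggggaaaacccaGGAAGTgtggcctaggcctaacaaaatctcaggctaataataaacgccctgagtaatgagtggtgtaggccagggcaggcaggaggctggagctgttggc
Tnfrsf13c promoter (chr15:82224331-82224630, minus strand): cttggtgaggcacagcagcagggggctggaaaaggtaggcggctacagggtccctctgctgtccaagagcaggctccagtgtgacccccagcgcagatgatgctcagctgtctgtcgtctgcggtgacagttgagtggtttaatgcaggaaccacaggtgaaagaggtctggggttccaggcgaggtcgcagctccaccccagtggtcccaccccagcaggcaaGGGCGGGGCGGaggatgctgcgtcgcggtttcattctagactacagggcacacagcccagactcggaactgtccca
Fasl promoter (chr1:161788446-161788745, minus strand): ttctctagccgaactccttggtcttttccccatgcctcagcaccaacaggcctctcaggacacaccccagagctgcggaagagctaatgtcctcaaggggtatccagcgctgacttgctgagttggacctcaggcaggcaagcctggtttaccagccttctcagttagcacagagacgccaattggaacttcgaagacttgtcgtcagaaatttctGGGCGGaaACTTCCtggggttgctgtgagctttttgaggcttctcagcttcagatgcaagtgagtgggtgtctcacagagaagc
Tnfrsf11a promoter (chr1:105780473-105780772, plus strand): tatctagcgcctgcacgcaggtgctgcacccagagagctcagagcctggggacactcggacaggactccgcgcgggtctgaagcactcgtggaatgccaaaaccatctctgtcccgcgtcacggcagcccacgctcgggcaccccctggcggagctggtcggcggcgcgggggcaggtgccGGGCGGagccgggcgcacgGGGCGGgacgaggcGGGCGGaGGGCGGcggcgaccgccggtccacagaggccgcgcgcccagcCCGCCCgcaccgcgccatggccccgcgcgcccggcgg
Tnfsf10 promoter (chr3:27316827-27317126, plus strand): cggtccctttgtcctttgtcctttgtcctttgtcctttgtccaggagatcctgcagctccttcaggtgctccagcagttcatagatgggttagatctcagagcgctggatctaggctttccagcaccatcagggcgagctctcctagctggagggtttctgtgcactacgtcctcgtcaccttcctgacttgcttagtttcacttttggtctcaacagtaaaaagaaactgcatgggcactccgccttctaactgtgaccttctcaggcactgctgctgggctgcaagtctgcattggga
Tnfrsf13b upstream region (chr11:61123170-61123319, plus strand): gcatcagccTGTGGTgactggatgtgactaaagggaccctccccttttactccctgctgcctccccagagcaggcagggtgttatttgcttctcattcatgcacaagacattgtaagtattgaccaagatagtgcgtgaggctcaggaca
Tnfrsf18 upstream region (chr4:156022232-156022381, plus strand): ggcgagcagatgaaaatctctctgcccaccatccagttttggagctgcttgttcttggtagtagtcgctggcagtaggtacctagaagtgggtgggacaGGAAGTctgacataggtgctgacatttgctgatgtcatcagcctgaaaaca
Tnfsf10 region in the gene (chr3:27322781-27322930, plus strand): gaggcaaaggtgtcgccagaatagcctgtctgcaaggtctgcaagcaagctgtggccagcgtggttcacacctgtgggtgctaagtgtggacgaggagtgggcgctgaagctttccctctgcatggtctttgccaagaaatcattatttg

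Of the 41 genes, 31 matched a promoter sequence, and 27025 genes had one in all. The table gave none for Cd40, Cd40lg, Cd70, Tnfrsf10b, Tnfrsf11b, Tnfrsf22, Tnfrsf26, Tnfsf12, Tnfsf4 and Tnfsf9. Among the 31 promoters the median number of CpG dinucleotides was 8, beside 7 over all genes. The Tnfrsf11a promoter stood at the top with 43, and the Tnfrsf14 promoter at the bottom with 2. A GC box was present in 15 of 31 (48.4%; all promoters 36.9%), a TATA box in 6 (19.4%; all 13.9%), an ETS core in 7 (22.6%; all 24.4%), a kappaB motif in 3 (9.68%; all 4.42%), and a CCAAT box (CCAAT) in 4 (12.9%; all 37.8%). AP-1 letters were found in 6 (19.4%; all 7.78%) and RUNX letters in 6 (19.4%; all 16.8%). In windows of the same length as the regions shown, around all +RV peaks, the ETS core was present in 23.5% and 23.7%, RUNX letters in 14.2% and 14.3% and AP-1 letters in 5.24% and 5.15%. These matches describe the letters and not the binding of a factor.

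Bulk peaks were read at promoters, from 1000 bp upstream to 200 bp downstream of each start site, and a promoter counted as called if each library of a condition had a peak there. Bulk values mix all cells, so fewer cells of a type and less accessible DNA per cell cannot be told apart. Without reverse crosslinking 20 of 41 promoters were called (48.8%), close to the share of all protein-coding genes (47.7%). With reverse crosslinking 30 were called (73.2%), above the share of all genes (53.6%). The 20 promoters called without reverse crosslinking had a peak in all 4 libraries (background 47.7%), and none was called without it alone. Another 6 were called with reverse crosslinking and had no peak in either −RV library (14.6%, background 3.48%). No peak in any library was found at 8 promoters (19.5%, background 43.5%), those of Cd40lg, Cd70, Tnfsf4, Tnfsf10, Tnfsf13, Tnfrsf4, Tnfrsf11b and Tnfrsf17. The remaining 7, Tnfsf13b, Tnfsf18, Cd27, Tnfrsf8, Tnfrsf9, Tnfrsf19 and Tnfrsf25, had peaks in only some libraries of a condition.

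By role, called ligands went from 6 to 11 of 17 and called receptors from 14 to 19 of 24. All 5 death domain receptors were called with reverse crosslinking, against 3 without. Per library, member promoters with a peak numbered 22 and 22 (−RV) and 31 and 32 (+RV), while 49.2%, 49.1%, 55% and 55% of all genes had one in the same order. In members these shares were 53.7%, 53.7%, 75.6% and 78%. The groups did not overlap, and the difference of 9.5 (22 ± 0 against 31.5 ± 0.707, mean ± SD, n = 2) gave p = 0.333 in an exact two-sided permutation test, the smallest that 2 against 2 libraries allows. The +RV lists are longer: when each library gave only its best-ranked 32288 peaks, 24 promoters were called with reverse crosslinking (background 50.9%) and 2 with it alone (4.88%, background 1.59%), Fasl and Tnfrsf11a. The difference per library was then 4.5 promoters (exact permutation p = 0.333).

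**Figure D1:**
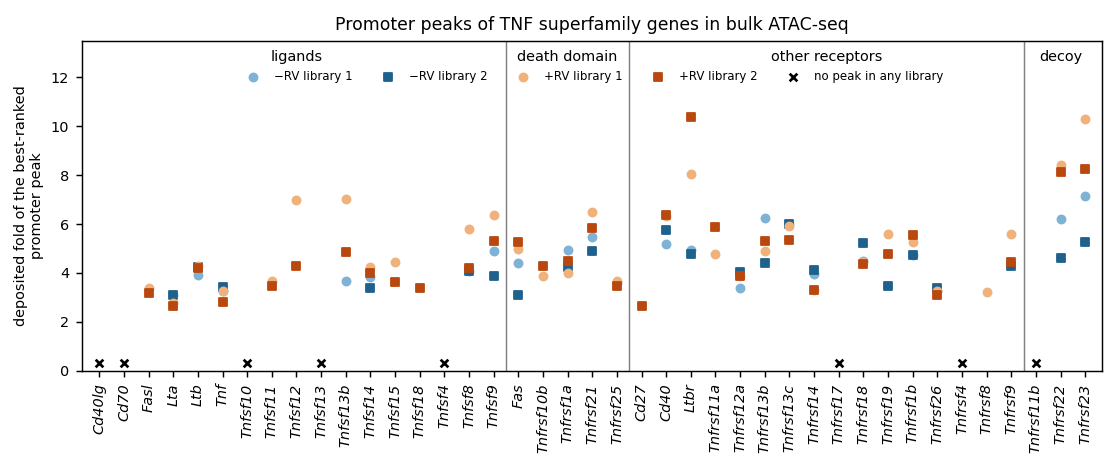
Deposited fold over local background of the best-ranked promoter peak (vertical axis) of each TNF superfamily gene (horizontal axis) in each bulk library; circles are library 1 and squares library 2 of −RV (blue) and +RV (orange), a missing symbol means no peak, and crosses mark the 8 genes with no peak in any library. Fasl, Tnfsf11, Tnfsf12, Tnfsf15, Tnfrsf10b and Tnfrsf11a have both orange symbols and no blue one.

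The 6 promoters called with reverse crosslinking alone belong to 4 ligands and 2 receptors. Each value here is the deposited fold, the pile-up at a summit over the peak caller's local background. Fasl, the ligand that triggers death through Fas, had no −RV peak and folds of 3.39 and 3.19 in the +RV libraries. Tnfsf11 (RANKL), which drives osteoclast and lymph node formation, had 3.67 and 3.48. The summit of this Tnfsf11 region lay 359 bp past the start site, outside the window. A separate region at 990 bp had peaks in all 4 libraries. Tnfsf12 (TWEAK) had 6.99 and 4.29, so its +RV libraries were far apart. Tnfsf15 (TL1A), a costimulator of T cells made by endothelial and myeloid cells, had 4.45 and 3.63. Among receptors, Tnfrsf10b, the death receptor for TRAIL, had 3.88 and 4.28. Tnfrsf11a (RANK), the receptor for Tnfsf11, had 4.78 and 5.87 and the most CpG-rich promoter of those with a sequence. All 6 were in both +RV libraries and in neither −RV library. With a window of 500 bp upstream and 100 bp downstream, Tnfsf11 and Tnfrsf10b dropped out, leaving 4 (9.76%, background 3.4%). Requiring the summit in the window left the same 4 (background 3.0%). The window of Tnfsf12 is shared with a readthrough gene of Tnfsf12 and Tnfsf13.

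Among the 20 promoters with a peak in all 4 libraries the median fold was 4.6 and 4.24 (−RV) and 4.93 and 4.88 (+RV), below that of all genes with 4 peaks (6.95, 6.78, 7.72 and 7.77). The fold is scaled within each library, so it was compared as a description. The highest mean belonged to Tnfrsf23, a decoy receptor for TRAIL, at 7.13 and 5.25 (−RV) and 10.3 and 8.24 (+RV). Tnfrsf22, its neighbour in the genome and also a decoy, had 6.22 and 4.6, and then 8.42 and 8.12. Ltbr, the lymphotoxin beta receptor, had 4.94 and 4.76 without and 8.05 and 10.4 with reverse crosslinking. In all 3 the +RV libraries lay above both −RV libraries.

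Cd40, the receptor through which T cells help B cells, had 5.17 and 5.74 (−RV) and 6.31 and 6.39 (+RV). Tnfrsf21, a death domain receptor, had 5.48 and 4.88, and then 6.48 and 5.84. Tnfrsf1b, the TNF receptor found mainly on leukocytes, had 4.73 and 4.75, and then 5.26 and 5.54. These again did not overlap between conditions. Tnfrsf13c (BAFF receptor) had 6.02 and 6.02 without and 5.92 and 5.33 with reverse crosslinking, lower in both. Tnfrsf13b (TACI), which binds BAFF and APRIL, had 6.25 and 4.42, and then 4.9 and 5.3, with overlap. The values of Tnfsf9, the ligand of the costimulator 4-1BB, were 4.9 and 3.86 (−RV) and 6.37 and 5.31 (+RV), without overlap. Tnfrsf18 (GITR), high on regulatory T cells, had 4.47 and 5.21, and then 4.46 and 4.36, lower in +RV by a small margin. Over the 20 promoters, both +RV folds lay above both −RV folds in 10 (50%) and below them in 4 (20%). Over all genes with 4 peaks these shares were 50% and 12.3%, so the share above was that of all genes.

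Downstream of the receptors, the promoters of the adaptors, kinases, NF-kB subunits and death effectors showed no such gaps. Of a list of 40 such genes, all 40 had a peak in all 4 libraries (background 47.7%), and none was called in 1 condition alone. Over all genes 3.48% were called with reverse crosslinking alone and 0.0137% without it alone. The highest mean folds were those of Ikbkg, the NEMO subunit of the IKK complex, at 9.08, 11.3, 12.7 and 11.3, and of Sharpin, part of the linear ubiquitin ligase, at 10.9, 10.1, 9.43 and 9.61, in the order −RV 1 and 2 and +RV 1 and 2. Tab3, which binds the kinase TAK1, had 10.6, 8.39, 10.4 and 9.79. Nfkbib, an NF-kB inhibitor, had 9.53, 10.4, 9.32 and 9.01, and Map3k7, which is TAK1 itself, had 7.52, 8.31, 9.23 and 9.35. The median fold of the 40 was 6.09, 6.17, 6.72 and 6.47, above the members' medians in each library. It lay below the median of all genes with 4 peaks in each (6.95, 6.78, 7.72 and 7.77).

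Peaks inside the genes were also more numerous in both +RV libraries. Summits in member gene bodies numbered 37 and 39 (−RV) and 61 and 68 (+RV), a difference of 26.5 (exact two-sided permutation p = 0.333, the smallest possible). Per 100 kb of gene this was 4.84 ± 0.18 and 8.21 ± 0.63 (mean ± SD, n = 2), against 1.64 and 2.50 over all genes. Member genes are short, 786 kb in all. Outside promoter windows the density was 3.40 and 3.66 (−RV) and 6.01 and 5.75 (+RV) per 100 kb, against 1.23, 1.26, 2.00 and 1.99 over all genes. With equal list lengths the difference was 7.5 summits.

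Regions near the genes, from 5000 bp upstream to 500 bp past the end and called in both libraries of a condition, numbered 73. Of these 33 lay at a member promoter and 40 away from one, and 27 of the latter were present in all 4 libraries. The gene with the most was Tnfrsf1b, with a promoter region and 7 regions inside the gene. Tnfrsf21 had regions 16163, 42219 and 60619 bp inside the gene, with folds of 5.37, 4.84, 6.98 and 7.17 at the one 42219 bp from the start site. Genes without a promoter peak could still hold a region: Tnfsf10 had one 5795 bp inside the gene with folds of 3.36 and 5.56 in the +RV libraries and no −RV peak.

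In single cells, fragments were counted by midpoint and scaled to the 1592372 (−RV) and 13703580 (+RV) nuclear fragments on the usual CPM scale. There is 1 set per condition, so no test was made. The authors kept barcodes of both sets by their share of fragments from 1000 bp upstream to 200 bp downstream of start sites. That is the promoter window used here, so the filter limits beforehand how far promoter CPM can differ between the sets. Intervals are exact and 95%, and cover counting error only. Summed over the 41 promoters the −RV set held 210 fragments (132 CPM) and the +RV set 2096 (153 CPM), a ratio of 1.160 (1.006 to 1.343), next to 1.134 (1.129 to 1.139) over all promoters. The median log2 ratio, with 1 CPM added to each value, was 0.29 for members and 0.16 for all genes. It was 0.00 when the +RV set was thinned to the −RV depth. The nuclei were tagmented with 20 indexed Tn5 reactions, and in 13 of these the summed CPM was higher in the +RV set. By the study's methods these reactions were pooled and barcoded before the nuclei were divided between the conditions, so each reaction is paired between the sets. Over reactions the summed CPM ran from 0 to 206 (−RV, median 122) and from 132 to 192 (+RV, median 145), so the ranges overlapped.

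No single promoter differed between the sets beyond its counting interval, while the interval excluded a ratio of 1 at 5.53% of all promoters. Of 35 members with at least 10 fragments over both sets and 1 in each, 6 were at least 2-fold higher with reverse crosslinking (17.1%, background 8.47%) and 1 at least 2-fold lower (2.86%, background 3.52%). The −RV set held at most 16 fragments at a member promoter, and 4 members, Cd70, Tnfsf4, Tnfsf11 and Tnfrsf11b, had none there. A count of 0 allows up to 3 fragments, or 1.88 CPM, and the exact two-sided interval drawn in the plot of promoter CPM ends at 2.32 CPM. The 6 promoters called with reverse crosslinking alone in bulk held 13 (−RV) and 156 (+RV) fragments, a ratio of 1.39 (0.792 to 2.68). The 20 promoters called in all libraries held 148 and 1441, a ratio of 1.13 (0.955 to 1.35). These intervals overlap.

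**Figure D2:**
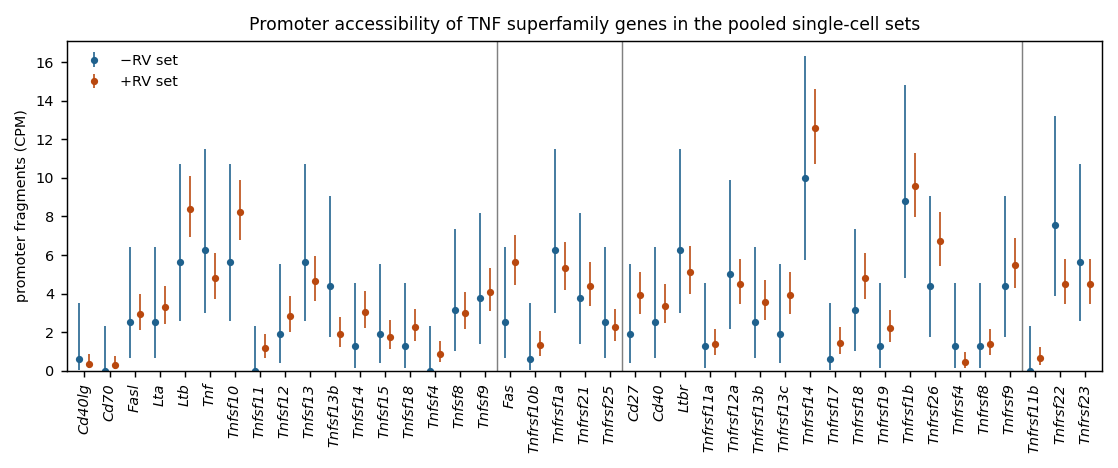
Promoter fragments scaled to all nuclear fragments of the set (CPM, vertical axis) of each TNF superfamily gene in the pooled −RV (blue) and +RV (orange) single-cell sets, with exact 95% counting intervals; grey lines separate ligands, death domain receptors, other receptors and decoys. Tnfrsf14 is highest in both sets, at 10 and 12.6 CPM, and every blue interval is wider than the orange one beside it.

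By level per length, Tnfrsf14 (HVEM), the receptor for LIGHT, led with 7.58 (−RV) and 9.47 (+RV) CPM per kb of promoter window, from 16 and 172 fragments. Tnfrsf1b followed with 7.32 and 7.96 CPM per kb, from 14 and 131 fragments. The ligand Tnfsf10 (TRAIL), which induces death through Tnfrsf10b, had 4.58 and 6.68 CPM per kb, from 9 and 113 fragments, although no bulk library had a peak there. Ltb, the membrane-bound partner of lymphotoxin alpha, had 4.07 and 6.05 CPM per kb (9 and 115 fragments).

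The widely expressed TNF receptor Tnfrsf1a had 5.23 and 4.44 CPM per kb (10 and 73 fragments), and Ltbr 5.23 and 4.25 (10 and 70). Tnf itself had 5.22 and 4 CPM per kb (10 and 66). The levels of the decoy gene Tnfrsf22 were 3.13 and 1.88 CPM per kb (12 and 62 fragments) and those of Tnfrsf26, a receptor gene beside it, 2.23 and 3.41 (7 and 92). Tnfsf13 (APRIL), also without a bulk peak, had 3.95 and 3.26 CPM per kb (9 and 64). These 10 have the highest mean CPM, and in the −RV set their CPM intervals all overlap. At the other end, Cd70, the ligand of Cd27, had 0 and 0.243 CPM per kb and Tnfrsf11b, a decoy receptor for Tnfsf11, 0 and 0.547.

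Over gene bodies the median log2 ratio was 0.22 for members and 0.04 for all genes, and the summed ratio was 1.189 (1.108 to 1.278) against 1.014 (1.012 to 1.016). Intervals excluded a ratio of 1 in 4 members (9.76%), and in 8.37% of all genes. Tnfsf8 (CD30 ligand) had 10 (−RV) and 23.1 CPM (+RV) from 16 and 316 fragments, a ratio of 2.29 (1.39 to 4.06). The other 3 were receptors: Tnfrsf1b with 64.1 and 85.2 CPM (1.33, 1.09 to 1.64), Tnfrsf21 with 45.8 and 60.7 CPM (1.32, 1.04 to 1.71), and Tnfrsf8, the CD30 receptor of Tnfsf8, with 48.4 and 61.6 CPM (1.27, 1.01 to 1.63). The share of barcodes of each cell class also differed between the sets, as given below.

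Fragments were longer in the +RV set. At member promoters 8 of 210 −RV fragments (3.81%, exact binomial 1.66% to 7.37%) and 603 of 2096 +RV fragments (28.8%, 26.8% to 30.8%) were longer than a nucleosome core. All promoters had 4.83% and 29.3%, each inside the interval of the members. Ligands had 4.05% and 29.1% and receptors 3.68% and 28.6%, with overlapping intervals. Around start sites, fragment ends reached 9.88 times the outer flanks in the −RV set and 7.77 times in the +RV set over the 72 member start sites, below the 13.9 and 14.5 times of all genes.

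**Figure D3:**
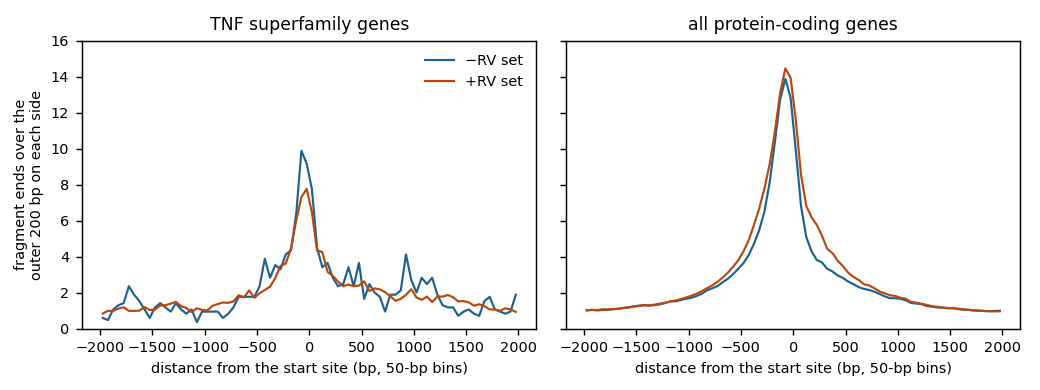
Fragment ends per 50-bp bin, divided by the mean of the outer 200 bp on each side (vertical axis), by distance from the start site (horizontal axis), for TNF superfamily genes (left) and all protein-coding genes (right) in the −RV (blue) and +RV (orange) sets. The member profile reaches 9.88 and 7.77, the profile of all genes 13.9 and 14.5.

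To ask in which cells the genes were accessible, the barcodes of both sets were clustered on 5000-bp bins that left out every bin within 50000 bp of a member, and clusters were named from marker lists. There were 5678 B cell-like, 3717 T cell-like, 2835 macrophage and monocyte-like, 4137 erythroid-like, 1700 endothelial-like, 2161 stromal-like and 798 pancreatic acinar-like barcodes. The marker list of the own class was raised 4.31, 4.03, 3.19, 3.05 and 5.41 (2 erythroid clusters), 3.37, 5.33 and 23.2 times against all other barcodes in that order. The NK cell list was also raised in T cell-like barcodes (3.37 times), and the neutrophil list in macrophage and monocyte-like barcodes (2.66 times). The plasma cell list was raised in B cell-like barcodes (1.94 times) and the megakaryocyte list in both erythroid clusters (2.18 and 1.72 times). Whether these classes hold such cells was not tested. Shares of the classes differed between the sets: erythroid-like barcodes made up 26.1% (−RV) and 18.9% (+RV), acinar-like barcodes 7.69% and 3.29%, T cell-like barcodes 15% and 18% and B cell-like barcodes 24.1% and 27.4%. Within classes the summed promoter ratio between the sets ran from 0.878 (stromal-like, 0.571 to 1.41) to 1.28 (T cell-like, 0.923 to 1.82), with intervals that all include 1.

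Each gene was read over a window from 5000 bp upstream to 500 bp past its end, and CPM in a class was divided by CPM in all other barcodes. A gene was raised when the ratio was at least 1.5 with a lower bound above 1. A gene was lower when the ratio was at most the inverse of that with an upper bound under 1. The windows of Tnfrsf1a, Tnfrsf4, Tnfrsf9, Tnfrsf12a and Tnfrsf23 also cover parts of neighbouring genes. All 41 had the 20 fragments required, 36 were raised in at least 1 class (87.8%, background 59.7%), and 22 in 1 class alone (53.7%, background 43.6%). Among raised genes, 1 class alone held 22 of 36 members, a smaller share than the 8739 of 11980 over all genes. The ratios describe barcodes grouped from the same fragments, so they carry no test.

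**Figure D4:**
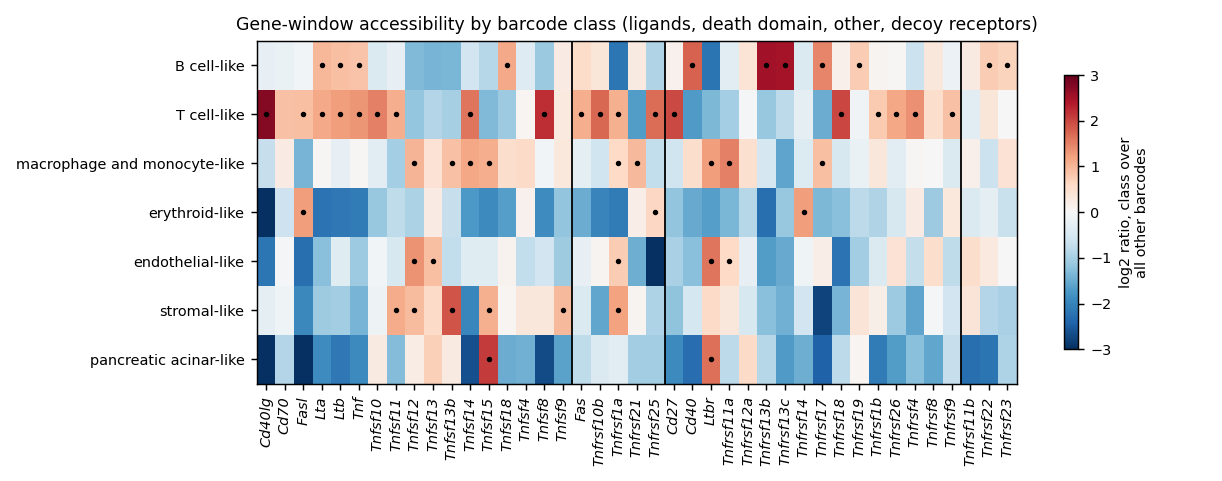
Log2 ratio of gene-window CPM in each barcode class over all other barcodes (color, cut at −3 and 3) for each TNF superfamily gene (columns) and class (rows); black dots mark raised genes and black lines separate ligands, death domain, other and decoy receptors. The T cell-like row has 19 dots, the B cell-like row 11 and the erythroid-like row 3.

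B cell-like barcodes had 11 raised members (26.8%, background 7.63%) and 8 lower (19.5%, background 17.0%). Leading were the receptors for BAFF and APRIL, survival factors of B cells. Tnfrsf13b had 257 fragments in B cell-like and 134 in other barcodes, or 67.3 and 11.7 CPM, a ratio of 5.77 (4.66 to 7.16). Tnfrsf13c had 35.9 and 6.36 CPM, a ratio of 5.65 (4.22 to 7.61), and both were higher in 20 of 20 Tn5 reactions. Tnfrsf17 (BCMA), the receptor of the group best known from plasma cells, had 14.4 and 5.23 CPM (2.76, 1.88 to 4.04), with no promoter peak in bulk. When clustering left out the deepest barcodes, 841 barcodes formed a separate plasma cell-like cluster. In it Tnfrsf17 had 18 fragments against 97 in all others (5.19, 2.95 to 8.64). Tnfrsf13b stood at 3.54 (2.53 to 4.86) and Tnfrsf13c at 2.62 (1.52 to 4.25) in that cluster, where the B cell marker list was also raised (1.91 times). Tnfrsf17 was still raised in the B cell-like barcodes of that clustering. In the −RV and +RV sets taken alone, the ratios were 7.57 and 5.61 for Tnfrsf13b and 13 and 5.24 for Tnfrsf13c.

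Cd40 was raised 3.41 times in B cell-like barcodes (2.57 to 4.53; 4.24 in −RV and 3.33 in +RV). Tnfsf18, the ligand of Tnfrsf18, was raised 2.21 times (1.69 to 2.87). Its promoter window was not raised there (1.5, 0.659 to 3.24, from 11 and 22 fragments), but was in stromal-like barcodes (4.13, 1.81 to 8.88). Lta, which is secreted or held at the surface by Ltb, was raised 2.01 times (1.54 to 2.63) in B cell-like barcodes. The Lta ratio was 2.14 in the +RV set and 0.867 (0.211 to 2.69) in the −RV set. At the low end were Ltbr at 0.218 (0.106 to 0.401), Tnfrsf1a at 0.221 (0.147 to 0.321) and Tnfsf13 at 0.38 (0.24 to 0.577). The remaining raised members were Ltb, Tnf, Tnfrsf19, Tnfrsf22 and Tnfrsf23, with ratios from 1.58 to 1.86.

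T cell-like barcodes had the largest number of raised members of the 7 classes, 19 (46.3%, background 9.16%), with 12 lower (29.3%, background 17.7%). Cd40lg, the ligand that T cells show to B cells, had 25.4 CPM against 3.79 in other barcodes (60 and 49 fragments), a ratio of 6.71 (4.52 to 9.99). Tnfsf8 had 80 and 17.2 CPM (4.64, 3.8 to 5.66), with like values in −RV (4.28) and +RV (4.63). Tnfrsf18 followed at 4.04 (3.07 to 5.31), higher in 20 of 20 reactions, and the costimulatory receptor Cd27 at 3.92 (3.11 to 4.92). The death receptors Tnfrsf10b and Tnfrsf25, the latter the receptor of Tnfsf15, reached 3.31 (2.65 to 4.11) and 3.19 (2.2 to 4.6).

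The lowest in T cell-like barcodes were Cd40 at 0.307 (0.151 to 0.562), Tnfrsf21 at 0.311 (0.231 to 0.41) and Tnfrsf17 at 0.355 (0.139 to 0.757). The window of Cd27 also covers part of Vamp1, and that of Tnfrsf25 parts of Espn and Plekhg5. In promoter windows alone Cd27 was raised too, with 36 and 21 fragments (9.39, 5.33 to 16.9), as was Tnfrsf25 with 20 and 15 fragments (7.3, 3.55 to 15.3). In all, 9 ligands and 10 receptors were raised in these barcodes, and Lta, Ltb and Tnf, neighbours in the genome of which Tnf and Lta have overlapping windows, were raised in both lymphocyte classes. In promoter windows Lta and Ltb were raised in both too, while Tnf was raised in B cell-like (1.75, 1.06 to 2.85) but not in T cell-like barcodes (1.24, 0.639 to 2.23, from 14 and 62 fragments).

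Macrophage and monocyte-like barcodes had 9 raised members (22%, background 9.22%) and 5 lower (12.2%, background 9.69%). Tnfrsf11a, which macrophages need to become osteoclasts, led at 59.9 against 21 CPM (2.85, 2.31 to 3.51), higher in 19 of 20 reactions. Ltbr was raised 2.38 times (1.67 to 3.36), Tnfsf14 (LIGHT) 2.24 times (1.5 to 3.3), Tnfsf15 2.12 times (1.44 to 3.07), Tnfsf12 2.04 times (1.48 to 2.78) and Tnfrsf21 1.95 times (1.69 to 2.25). Tnfrsf17, Tnfrsf1a and Tnfsf13b were the remaining raised members. Lowest were Tnfrsf13c at 0.336 (0.171 to 0.6), Fasl at 0.383 (0.227 to 0.61) and Tnfsf11 at 0.49 (0.255 to 0.865).

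Erythroid-like barcodes showed the reverse picture, with 29 members lower (70.7%, background 20.7%) and 3 raised (7.32%, background 16.4%). The lowest were Cd40lg at 0.069 (0.00825 to 0.256), Tnfrsf13b at 0.21 (0.128 to 0.325) and Lta at 0.214 (0.112 to 0.374). Tnfrsf14 was raised 2.37 times, from 27 to 64.1 CPM (1.99 to 2.83; 4.06 in −RV and 2.24 in +RV), and also in its promoter window, with 71 and 117 fragments (2.24, 1.64 to 3.04). Fasl was raised 2.37 times as well (1.86 to 3.02), but not at its promoter. Of 115 Fasl fragments in erythroid-like barcodes, 87 lay upstream of the promoter window (ratio 5.95, 4.19 to 8.52), while the promoter window gave 0.821 (0.33 to 1.8). In T cell-like barcodes the Fasl promoter window was raised 4.56 times (2.39 to 8.62) and the upstream stretch was at 1.01 (0.611 to 1.6). Tnfrsf25 was the third, at 1.53 (1.03 to 2.25) over a window that other genes share, and at 0.477 (0.122 to 1.35) in its promoter window.

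Among nonhematopoietic classes, endothelial-like barcodes had 5 raised members (12.2%), near the background of 11.1%, and 13 lower members (31.7%, background 12.8%). Ltbr led at 28 against 9.21 CPM (3.04, 2.01 to 4.49), and its promoter window gave 3.73 (2.11 to 6.34). The −RV set alone held few Ltbr fragments and gave 0.672 (0.016 to 4.37). Tnfsf12 (2.53, 1.73 to 3.63), Tnfsf13 (1.86, 1.22 to 2.75), Tnfrsf1a (1.69, 1.24 to 2.25) and Tnfrsf11a (1.51, 1.08 to 2.05) completed the list, and the windows of Tnfsf12 and Tnfsf13 overlap. Tnfrsf1a was also raised in T cell-like, macrophage and monocyte-like and stromal-like barcodes. Its promoter window was raised in T cell-like (3.8, 2.38 to 6.01) and stromal-like barcodes (1.97, 1.07 to 3.44). In endothelial-like barcodes that window stood at 1.1 (0.429 to 2.39). Lowest were Tnfrsf25 at 0.0908 (0.00228 to 0.515), Fasl at 0.207 (0.0668 to 0.49) and Tnfrsf18 at 0.216 (0.0583 to 0.561).

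Stromal-like barcodes had 6 raised (14.6%), near the background of 12.3%, and 15 lower (36.6%, background 17.6%). Of these 6, 5 were ligands, which make up 17 of the 41 members. Tnfsf13b, which is BAFF, had 31.5 against 8.5 CPM (3.7, 2.62 to 5.18), and its promoter window gave 4.72 (2.12 to 10). The values of Tnfrsf1a (2.32, 1.83 to 2.91), Tnfsf11 (2.15, 1.42 to 3.17), Tnfsf15 (2.1, 1.36 to 3.16), Tnfsf9 (1.95, 1.21 to 3.03) and Tnfsf12 (1.92, 1.33 to 2.72) followed. Tnfrsf17 was lowest at 0.146 (0.0175 to 0.54), then Tnfsf14 at 0.258 (0.0692 to 0.677) and Fasl at 0.261 (0.118 to 0.502). Pancreatic acinar-like barcodes, which are no part of the labelled tissue, had 2 raised (4.88%, background 12.6%) and 19 lower (46.3%, background 14.0%). These 2 were Tnfsf15 at 4.29 (2.67 to 6.64) and Ltbr at 3.12 (1.88 to 4.96), while Cd40lg had 0 fragments of 691409 (a count of 0 allows up to 3 fragments, or 4.34 CPM), Fasl stood at 0.0721 (0.00182 to 0.405) and Tnfsf8 at 0.155 (0.0318 to 0.456).

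The windows of known binding partners can be set side by side. BAFF (Tnfsf13b) was raised in stromal-like (3.7) and macrophage and monocyte-like (1.85) barcodes and lower in B cell-like ones (0.384), where its receptors were raised. Of those receptors Tnfrsf17 was also raised in macrophage and monocyte-like barcodes, though not in its promoter window (1.73, 0.496 to 4.95). Cd40lg was raised in T cell-like and Cd40 in B cell-like barcodes. Tnfsf11 was raised in T cell-like (2.14) and stromal-like (2.15) barcodes and its receptor Tnfrsf11a in macrophage and monocyte-like ones (2.85). Lta and Ltb were raised in B cell-like (2.01 and 1.86) and T cell-like (2.2 and 2.38) barcodes, where Ltbr stood at 0.218 and 0.396. Other pairs shared a class: Tnfsf10 (2.87) and Tnfrsf10b (3.31), and Fasl (1.88) and Fas (2.13), were all raised in T cell-like barcodes. So were Tnf (2.5) and its receptors Tnfrsf1a and Tnfrsf1b (1.72). In promoter windows of these barcodes Tnfsf10, Fasl and Tnfrsf1a were raised, while Fas (1.45, 0.799 to 2.51), Tnf and Tnfrsf1b were not. Tnfrsf10b had too few fragments in its promoter window. Whether partners differ in class more often than other genes was not tested.

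The bulk regions were also read by class, 60 of them with at least 20 fragments. The background is the count over bulk regions near any protein-coding gene. A member region counts as away if it misses that member's own promoter, a background region only if it misses those of all genes it lies near. The Tnfrsf9 regions at −10201 and −5607 bp touch the Park7 promoter but count as away. The first of them is among the regions raised in erythroid-like barcodes. At promoters, 11 of 27 regions were raised in T cell-like barcodes (40.7%, background 9.45%), 8 in B cell-like (29.6%, background 8.36%) and 6 in macrophage and monocyte-like ones (22.2%, background 3.40%). Away from promoters, 14 of 33 were raised in T cell-like barcodes (42.4%, background 21.7%). In B cell-like barcodes 12 were (36.4%), near the background of 31.7%, and in macrophage and monocyte-like ones 3 (9.09%, background 13.2%). The other classes had few: erythroid-like barcodes 2 at promoters and 3 away (backgrounds 12.1% and 11.0%), endothelial-like 1 and 2 (15.1% and 9.98%), stromal-like 3 and 1 (11.6% and 8.41%) and acinar-like 1 and 0 (12.2% and 3.73%). Distances are from the nearest annotated start site, negative when upstream. The Tnfrsf13b region at −3510 bp, whose bases are printed above, had 33 fragments in B cell-like and 6 in other barcodes (16.5, 6.85 to 48.3). The Tnfrsf18 region at −3857 bp had 33 in T cell-like and 13 in other barcodes (13.9, 7.12 to 28.8). The Tnfsf10 region inside the gene had 16 and 4 (21.9, 7.07 to 90), while the promoter window of this gene was raised 2.03 times (1.32 to 3.06). These 3 regions were picked from the highest ratios of each class away from promoters. In each of the 3, other barcodes alone held fewer than the 20 fragments required. Each thus passed that filter through the class where its ratio is high, the Tnfsf10 region with exactly 20. Others in T cell-like barcodes were a region 16281 bp inside Fas (7.67, 3.17 to 19.3) and one at −4706 bp from Cd27 (6.57, 3.48 to 12.5).

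Within Tnfrsf1b the regions differed by class. The promoter region was raised in B cell-like barcodes (1.64, 1.16 to 2.29), as was a region 5755 bp inside the gene (2.32, 1.58 to 3.4), which was also raised in macrophage and monocyte-like ones (1.74, 1.1 to 2.69). Regions 10710 bp (9, 4.44 to 18.9), 16950 bp (3.35, 1.43 to 7.48) and 17635 bp (3.89, 2.14 to 6.93) from the start site were raised in T cell-like barcodes. The one at 16950 bp was also raised in endothelial-like barcodes (5.39, 2.16 to 12.4, from 9 and 20 fragments). A region at 12893 bp was raised in macrophage and monocyte-like (2.81, 1.86 to 4.18) and stromal-like barcodes (1.72, 1.01 to 2.81). Those at 25299 bp (2.75, 1.64 to 4.56) and 32295 bp (2.09, 1.08 to 3.92) were raised in erythroid-like barcodes, in which the gene as a whole stood at 0.535 (0.456 to 0.625).

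**Figure D5:**
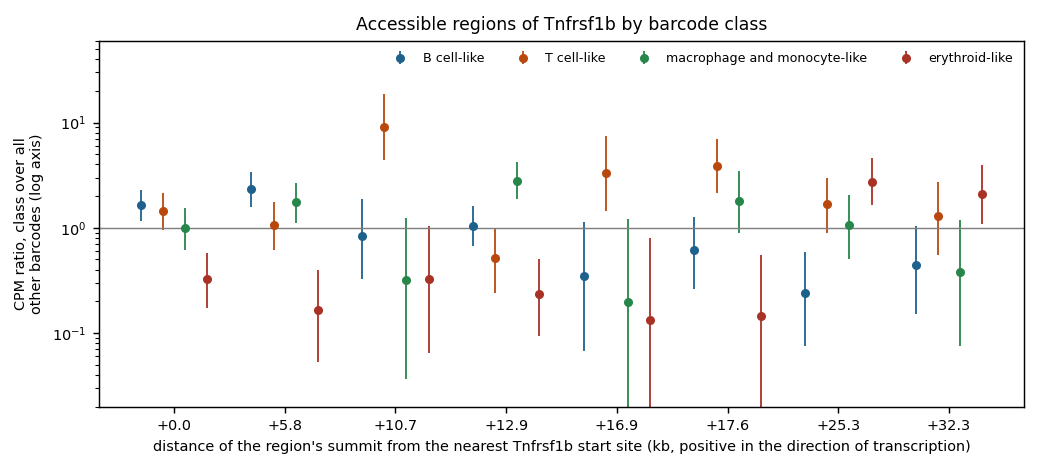
CPM ratio of the bulk regions of Tnfrsf1b in 4 barcode classes over all other barcodes (vertical axis, log scale, points with exact 95% counting intervals) by distance of the region's summit from the nearest start site in kb (horizontal axis, evenly spaced). T cell-like values are the highest of the 4 at 10710, 16950 and 17635 bp, erythroid-like values at 25299 and 32295 bp.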

How the data were processed

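Nuclei from FFPE spleens were profiled in 4 bulk and 4 single-cell ATAC-seq libraries. Sample descriptions gave each group and replicate number. Each pooled single-cell set carries an abbreviation shared with the bulk lists, and its condition was read from that. The submitters' notes list SEACR 1.3, Picard 1.119, SAMtools 1.15 and Bowtie2 2.4, on mm10, and the study's methods name MACS2. Each bulk library has a list of its own. The authors deposited for each bulk peak a score, a fold (a ratio of pile-up over local background), and −log10 p and −log10 q values within its library. The authors aligned single-cell reads with BWA, removed duplicates, kept barcodes by their unique fragments and share of fragments at start sites, and deposited each fragment as start, end and barcode, with replicates pooled.

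Promoters were taken from GENCODE vM21 (41433 start sites, 72 of members). Peaks counted as touching a window with 1 bp of overlap. Exact two-sided permutation tests compared libraries; as these are described as technical replicates, p measures the spread between them alone. Barcodes were clustered on 5000-bp bins by latent semantic indexing with 20 components, 20 neighbours and Leiden at resolution 1 (leidenalg 0.10.2), with Python 3.11.15 and scipy 1.17.1. No doublet caller was run, and clustering was repeated without the 5% deepest barcodes. The rule for raised genes was tested on simulated counts. These carried counting error alone with class labels fixed, so that test does not cover the clustering or the spread between barcodes. Named genes were members called in 1 condition alone, the 10 highest by mean fold among those in all libraries, the 10 highest by mean single-cell promoter CPM, those whose ratio interval between sets excluded 1, up to 6 raised and 3 lowest per class, and of the pathway list the 5 highest by fold. Members, lists and rules were chosen with earlier results of these data known. The split of Fasl, the ratios within classes, the counts over Tn5 reactions, the plasma cell-like cluster and the sequences shown were chosen after seeing the data. Alternatives were other peak thresholds, list lengths, windows, pseudocounts, depths, lengths, clusterings and left-out libraries. 1 region is not reported here.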

Additional observations from a re-analysis of the deposited data

How the results depend on the processing

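Of 92 alternatives for counts and medians, 88 kept the direction and, by the kind of value, stayed within 1.5 times of a count, on the same side of the test's threshold for a difference between libraries, or within the interval of a median. With 2 against 2 libraries the exact permutation p cannot fall below 0.333. For differences between libraries that side was therefore fixed beforehand, and only their direction and size can be read. With the same number of peaks per library the promoters called with reverse crosslinking alone numbered 2 in place of 6, and both differences between libraries shrank by more than 1.5 times, from 9.5 to 4.5 promoters and from 26.5 to 7.5 summits in gene bodies. Thinning the +RV set to the −RV depth, in 1 random draw, took the median log2 ratio of member promoters from 0.29 to 0.00. Requiring a ratio of at least 2 left 6 of 41 members raised in B cell-like barcodes (background 2.88%). Promoter windows left 12 raised in T cell-like ones, of 34 members with enough fragments (background 8.21%). The cause was not tested, apart from the fewer peaks, fragments or members that each choice leaves. Leaving out 1 bulk library gave 20 to 22 promoters called without and 30 to 32 with reverse crosslinking, 7 to 8 with it alone, a difference per library of 9 to 10 promoters and of 23 to 30 summits in gene bodies. With the replicate block, the differences of 9.5 and 26.5 gave an exact p of 0.5, the smallest that 2 pairs allow. The study split tagmented nuclei between the conditions but does not state that a replicate number marks the same split. The correlation of same-numbered deviations was 0.01 over 20 members. Of 80 alternatives for single promoters, 78 moved by less than the counting interval; the exceptions were Tnfrsf26 (2.73) and Tnfsf10 (3.10) in barcodes of at least 1000 fragments. Depth limits the −RV set most, where 1 fragment is 0.628 CPM against 0.073 in the +RV set.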
